A study of Mus musculus with 6 samples.

Results

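Pou2af1, Pou2f2, Spib, Bach2, Bcl6, Prdm1 and Xbp1 are transcriptional regulators of mature B cells, germinal center B cells and plasma cells. They were chosen by name for these roles, with earlier results of these data known. They are 7 of the 21938 protein-coding genes that GENCODE release M21 places on the autosomes and sex chromosomes of GRCm38. For each gene, the H3K4me3 peaks within 2500 bp of any annotated transcription start site (TSS) and over the gene body were collected in 2 mouse cell lines. One of them, Scid.adh.2C2, serves as a model of pro-T cells. It was subcloned from lymphoma cells that arose spontaneously in the thymus of a SCID mouse (CB17-Prkdc scid). The other is an Abelson-transformed pre-B cell line, called the pre-B line. In each line, chromatin was precipitated with an antibody against H3K4me3 in 2 replicates and sequenced beside 1 input library. The authors combined the replicates of a line into 1 peak list, so there is no value per replicate, no spread and no test between the lines, and lineage cannot be told apart from other differences between these 2 lines.

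Trimethylation of histone H3 at lysine 4 is laid down around the start sites of active genes and of genes held ready for transcription, and at highly transcribed cell identity genes it can spread far into the gene. The genes examined here were chosen for roles of their products late in the B lineage, and earlier roles were not considered. Pou2f2 and its coactivator Pou2af1 work through octamer sites, Spib is an Ets factor, Bach2 and Bcl6 are repressors that hold back plasma cell differentiation, and Prdm1 and Xbp1 drive that differentiation and the secretory machinery that goes with it.

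The list of Scid.adh.2C2 held 15513 peaks with a median fold enrichment over background of 20.3, and that of the pre-B line held 19604 peaks with a median of 15.4. Since the lists were not scaled to each other, each fold is also given as a percentile among the protein-coding genes marked in the same list, where marked means that a peak overlapped the promoter windows by at least 1 bp. The depth of the libraries is unknown.

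All 7 regulators were marked in the pre-B line, and 5 of them, Pou2af1, Pou2f2, Bcl6, Prdm1 and Xbp1, were also marked in the pro-T line. Among all protein-coding genes, 48.2% were marked in the pre-B line and 45.5% in Scid.adh.2C2. Marking in both lines was found for 5 of the 7 regulators, beside 42.2% of all protein-coding genes. Spib and Bach2 were marked in the pre-B line only, a class that held 5.97% of all genes. None of the 7 was marked in Scid.adh.2C2 only, beside 3.28% of all genes, and none was unmarked in both lines, beside 48.5%. The main TSS, taken as the most upstream start of a basic protein-coding transcript, lay inside a peak for 6 of the 7 in the pre-B line and for 5 of the 7 in Scid.adh.2C2, against 39.6% and 38.7% of all genes.

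**Figure D1:**
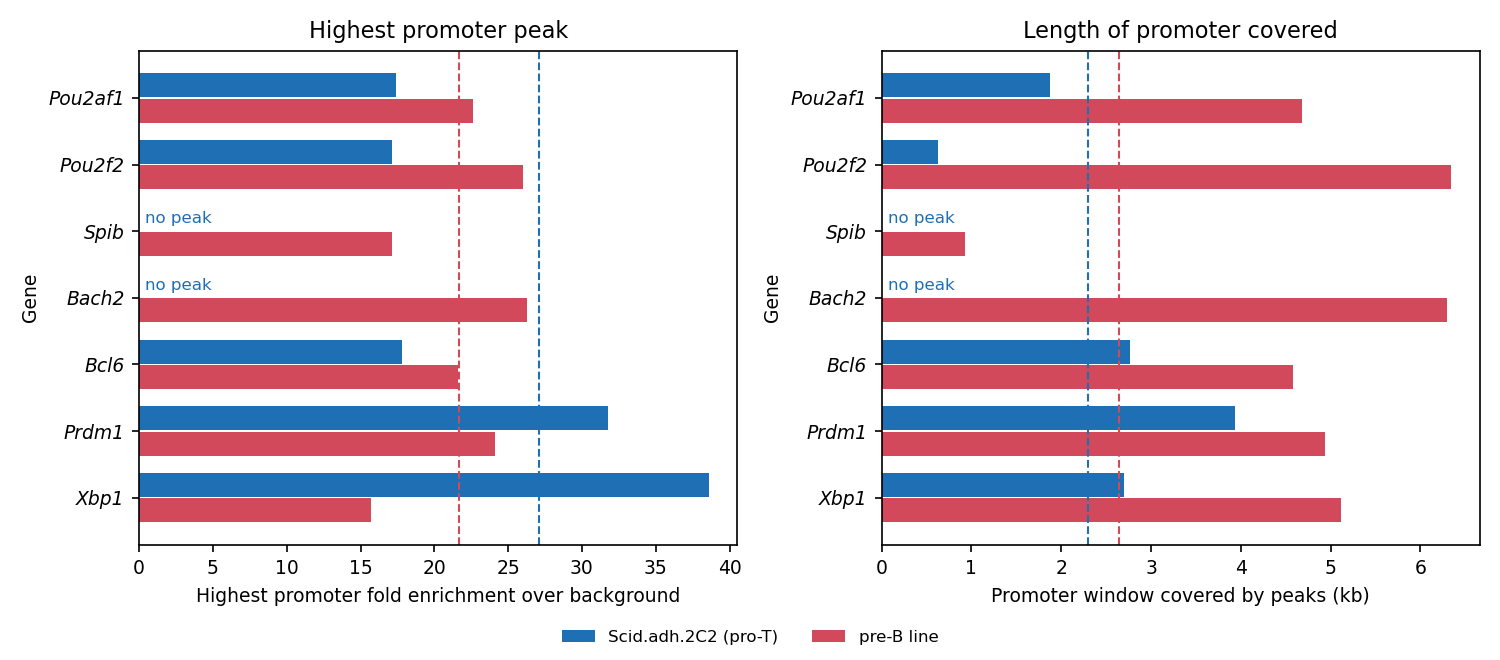
Highest fold enrichment of a promoter peak (left) and kb of the promoter windows covered by peaks (right) for each regulator, with Scid.adh.2C2 in blue and the pre-B line in red, 1 combined list per line. Dashed lines are the medians of the protein-coding genes marked in each list, 27.1 and 21.7 for the fold, and 2294 and 2638.5 bp for the covered length. Xbp1 had the highest fold in Scid.adh.2C2 (38.6) and, where any overlap with the window counts, the lowest in the pre-B line (15.7). With the summit required in the window, Spib was lowest in the pre-B line at 6.85.

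All 5 regulators marked in both lines had more covered promoter in the pre-B line, as did 74.0% of the 9261 protein-coding genes marked in both lines. Pou2af1 and Pou2f2 had at least 2 times the covered length in the pre-B line, which held for 5.99% of these genes. The median log2 ratio of covered length, the pre-B line over Scid.adh.2C2, was 0.92 over the 5 regulators and 0.16 over the 9261 genes. For the highest fold the median log2 ratio was 0.28 over the 5 regulators and -0.32 over the 9261 genes. The fold was lower in the pre-B line for 2 of the 5, Prdm1 and Xbp1, as it was for 76.1% of the genes marked in both lines. For Bcl6 and Prdm1 the highest promoter peaks of the lines lie at different places. With the peak over the main TSS in both lines, the log2 ratio of the fold was -0.60 for Bcl6 and 1.07 for Prdm1, so Bcl6 and Xbp1 were then the 2 that were lower in the pre-B line. Its median was 0.38 over the 5 regulators and -0.33 over the 7514 genes whose main TSS lay in a peak in both lines, 76.8% of which were lower in the pre-B line.

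**Figure D2:**
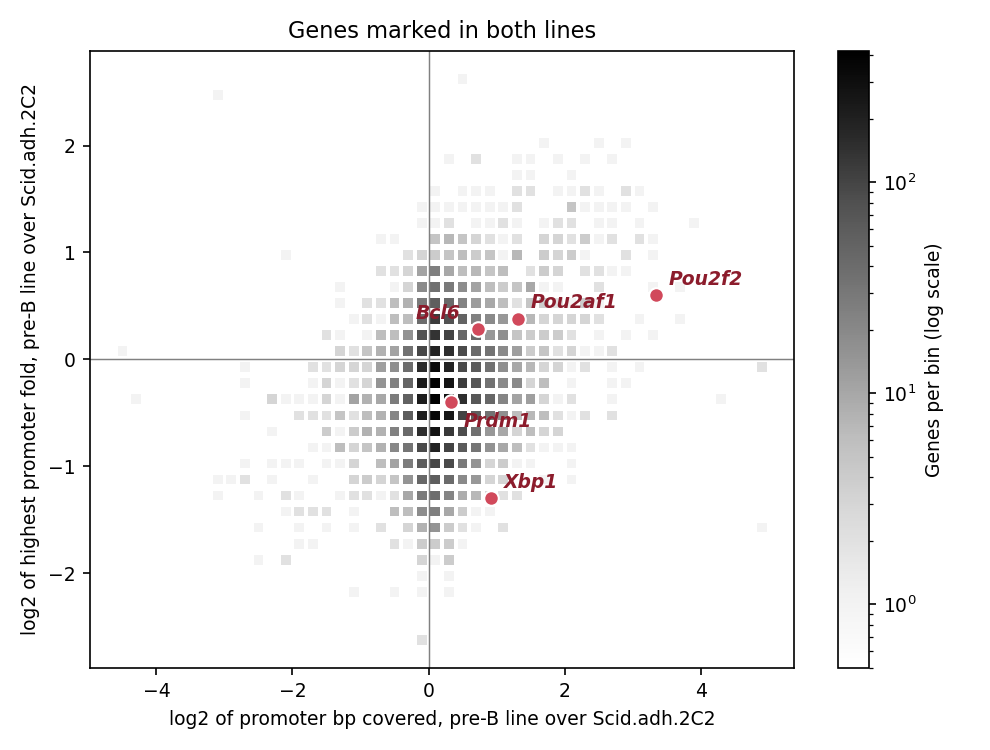
Each grey square is a bin of protein-coding genes marked in both lines, placed by the log2 ratio (pre-B line over Scid.adh.2C2) of promoter bp covered (horizontal) and of the highest promoter fold (vertical), with values beyond the axes put in the outermost bins. Red points are the 5 regulators marked in both lines. All 5 lie right of 0, Pou2f2 farthest at 3.34, and Xbp1 lies lowest at -1.30.

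Pou2af1 encodes the B cell coactivator known as OCA-B or OBF-1, and its promoter was marked in both lines by domains of very different length. The gene lies on the plus strand of chromosome 9 from 51213708 to 51240080. In Scid.adh.2C2 a single peak of 1870 bp, from 51213232 to 51215101, covered the main TSS with a fold of 17.4 (percentile 12.5). In the pre-B line the peak over the same TSS ran for 5861 bp, from 51213189 to 51219049, with a fold of 22.6 (percentile 55.5). The upstream edges of both peaks lie close together, and the extra length lies inside the gene, in the direction of transcription. The summits were 50 bp apart, both in an intron. A pair of lower peaks upstream, at 7.63-fold and 6.58-fold, was found in the pre-B line and had no counterpart in Scid.adh.2C2. With peaks joined over gaps of up to 1000 bp, the domain at the TSS measured 8543 bp in the pre-B line and 1870 bp in Scid.adh.2C2, at percentiles 98.6 and 26.1 of the genes whose main TSS lay in such a domain. Covered promoter length was 4679 bp against 1870 bp, a log2 ratio of 1.32 (percentile 96.7 of the genes marked in both lines).

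Farther inside Pou2af1 the lines shared no peak. An intronic peak of 3378 bp in the pre-B line had its summit 11.3 kb downstream of the TSS at 10.0-fold, with a score of 541 for reproducibility between the replicates, on which most peaks reach 1000. In Scid.adh.2C2 a peak of 345 bp lay 25.1 kb downstream, in the UTR at the end of the gene, at 5.80-fold and with a score of 642. The TSS of the second transcript, 19435 bp inside the gene, had no peak within its window in either line. The neighbour Colca2 was unmarked in both lines, and Gm32742 on the other side was marked in both, at 9.76-fold in Scid.adh.2C2 and 13.5-fold in the pre-B line.

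Pou2f2 encodes Oct-2, the octamer-binding factor that Pou2af1 assists, and it had the narrowest promoter mark of the 7 regulators in the pro-T line. The gene runs on the minus strand of chromosome 7 from 25087344 to 25179726 and has 5 distinct TSSs. In Scid.adh.2C2 its promoter carried 1 peak of 625 bp, from 25132345 to 25132969, at 17.1-fold, and only 1.78% of marked genes had a widest promoter peak of that width or less. In the pre-B line the peak at the same 3 clustered TSSs was 4087 bp wide, from 25129787 to 25133873, at 26.0-fold (percentile 78.0). Covered promoter length was 625 bp against 6343 bp, a ratio of 10.1 and a log2 ratio of 3.34, at percentile 99.9 of the genes marked in both lines. The windows of 3 separate starts add up to this length in the pre-B line, and with the window at the main TSS alone it was 3862 bp against 625 bp.

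The pre-B line also had peaks at more of the start sites of Pou2f2. A peak of 1635 bp at 18.2-fold contained the TSS 11654 bp downstream of the main one, from which a shorter protein-coding transcript starts. A peak of 811 bp at 16.8-fold contained the most upstream TSS, 47214 bp from the main one and annotated for a transcript with a retained intron. Neither had a peak in Scid.adh.2C2, where the nearest peaks were 11487 bp and 23113 bp away. If the most upstream TSS alone is taken, Pou2f2 is therefore unmarked in Scid.adh.2C2, and 4 of the 7 regulators are marked there. Conversely, Scid.adh.2C2 had an intronic peak at 11.5-fold by the start of the long non-coding RNA D930028M14Rik, 23.3 kb upstream of the main TSS, and a 5.86-fold peak in the UTR near the end of the gene, both without a partner in the pre-B line. The flanking genes Zfp574 and Dedd2 were marked in both lines, at 34.2-fold and 37.8-fold in Scid.adh.2C2 and at 28.7-fold and 27.5-fold in the pre-B line, so the low and narrow mark of Pou2f2 in Scid.adh.2C2 was not shared by its neighbours.

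Spib encodes an Ets factor of B cells and plasmacytoid dendritic cells, and in neither line did a peak contain any of its 3 TSSs. The gene is short, 6079 bp on the minus strand of chromosome 7 from 44525993 to 44532071. In the pre-B line the mark lay farther inside the gene in 3 peaks. The first, of 739 bp, had its summit 2.64 kb downstream of the main TSS in a coding exon at 6.85-fold, with a reproducibility score of 836. The next, of 1306 bp from 44527660 to 44528965, was the highest at 17.1-fold (percentile 23.1), with its summit in a UTR 4.11 kb downstream. The last, of 2393 bp at 12.8-fold, ran past the end of the gene into the promoter window of Mybpc2, a neighbour that was itself marked in the pre-B line only. Peaks covered 59.7% of the gene in the pre-B line and 13.3% in Scid.adh.2C2.

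In Scid.adh.2C2 the same site inside Spib carried a narrower peak. It measured 608 bp, from 44527703 to 44528310, at 15.9-fold, and its summit was 6 bp from that of the pre-B peak. A small peak of 198 bp at 3.78-fold lay nearer the start of the gene, and its edge was 2697 bp from the nearest TSS, just outside the window. The call of Spib as marked in the pre-B line only thus rests on how far the mark reached toward the start of the gene. With windows of 5000 bp Spib was marked in both lines, and with windows of 1000 bp it was marked in neither. The neighbour Pold1 was marked in both lines, at 24.7-fold in Scid.adh.2C2 and 20.2-fold in the pre-B line.

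Bach2, a repressor that delays plasma cell differentiation and is needed for class switching, was the regulator with the clearest difference between the lines. It is 347305 bp long and lies on the plus strand of chromosome 4 from 32238804 to 32586108. No H3K4me3 peak of Scid.adh.2C2 lay over the gene or within its promoter windows, and the peak nearest to the main TSS was 182693 bp away. By contrast, 6 peaks of the pre-B line overlapped the gene. The strongest, from 32238046 to 32241850, was 3805 bp wide, contained the 3 most upstream TSSs and reached 26.3-fold (percentile 79.9). A wider one of 4423 bp at 20.5-fold, from 32247502 to 32251924, contained the TSS of a non-coding transcript 8960 bp downstream. Covered promoter length was 6295 bp, at percentile 98.0 of the genes marked in the pre-B line, and 3259 bp with the window at the main TSS alone.

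The remaining 4 peaks of the pre-B line in Bach2 were intronic. Their summits lay 64.6, 121, 134 and 138 kb downstream of the main TSS, with folds of 6.45, 14.9, 9.36 and 7.80, the first with a reproducibility score of 634, and none was near an annotated start site of another gene. Another peak at 8.34-fold lay 9.49 kb upstream of the gene. The internal protein-coding TSS at 32417435 had no peak within its window in either line, and the nearest peak of the pre-B line was 40891 bp away. Neighbouring promoters were marked in both lines: Map3k7 reached 25.3-fold in Scid.adh.2C2 and 29.0-fold in the pre-B line, and the paired peaks at Casp8ap2 beyond the other end of Bach2 reached 16.0-fold and 15.2-fold in Scid.adh.2C2 and 17.9-fold and 25.2-fold in the pre-B line. The gene Gja10 next to Bach2 was unmarked in both.

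The upstream start of Bach2, which was marked, and its internal protein-coding start, which was not, differ in CpG content, so the sequences before these 2 are shown. The other starts of the gene were not compared. The first is the 250 bases before the upstream TSS, chr4:32238554-32238803 on the plus strand, which lie within the pre-B peak and were read from the GRCm38 genome. The second is the 250 bases before the internal start, chr4:32417185-32417434 on the plus strand, from the RefSeq promoters of GRCm38. Neither overlaps an exon of the gene, and capitals mark CpG.
Bach2 upstream start: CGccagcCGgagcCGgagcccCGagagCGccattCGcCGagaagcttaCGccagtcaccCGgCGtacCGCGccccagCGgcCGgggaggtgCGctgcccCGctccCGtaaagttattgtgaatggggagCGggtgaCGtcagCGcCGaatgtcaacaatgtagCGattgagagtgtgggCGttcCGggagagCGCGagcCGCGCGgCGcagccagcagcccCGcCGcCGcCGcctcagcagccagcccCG
Bach2 internal start: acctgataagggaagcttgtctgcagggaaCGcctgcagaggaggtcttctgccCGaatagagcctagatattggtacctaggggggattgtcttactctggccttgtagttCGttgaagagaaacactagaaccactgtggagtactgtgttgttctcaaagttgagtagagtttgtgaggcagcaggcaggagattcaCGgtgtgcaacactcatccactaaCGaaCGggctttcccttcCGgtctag
The upstream start has 35 CpG, at percentile 97.4 of the 32841 RefSeq promoters at this length, and a GC content of 71.2%. The internal start has 7, near the median of 6. The CpG-rich start carried a peak in the pre-B line and none in the pro-T line, and the internal start carried none in either.

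Bcl6, the repressor that directs the germinal center reaction and also acts in follicular helper T cells, carried a long block of H3K4me3 in both lines. The gene lies on the minus strand of chromosome 16 from 23965052 to 23988852. In Scid.adh.2C2, 5 peaks overlapped it, of 638, 1116, 1306, 1810 and 1120 bp going downstream from the main TSS, with folds of 17.8, 11.3, 13.4, 21.1 and 20.7. The same stretch was covered in the pre-B line by 3 peaks of 2702, 2623 and 4631 bp, with folds of 11.8, 21.6 and 23.0. Joined over gaps of up to 1000 bp, the block measured 6973 bp in Scid.adh.2C2 (percentile 98.8) and 10209 bp in the pre-B line (percentile 99.6). It extended 6432 bp downstream of the TSS in the pro-T line and 8058 bp in the pre-B line. Thus Bcl6 was already among the widest promoter domains of Scid.adh.2C2 when fragments are joined, whereas its widest single promoter peak there, 1306 bp, stood at percentile 12.3.

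Over Bcl6 the highest peak did not contain the TSS in either line. In the pre-B line the peak over the TSS was the lowest of the 3, and in Scid.adh.2C2 it was higher than the next 2 and lower than the last 2. In both lines the highest peak had its summit in an intron at about the same place, 3.73 kb downstream in Scid.adh.2C2 and 3.64 kb in the pre-B line, 92 bp apart. A further intronic summit coincided to 1 bp at 1.68 kb. Within the promoter windows the highest fold was 17.8 in Scid.adh.2C2 (percentile 13.4) and 21.6 in the pre-B line (percentile 49.6), and 2763 bp and 4580 bp were covered. The neighbour Rtp2 was unmarked in both lines, and Lpp on the other side was marked in both, at 31.2-fold in Scid.adh.2C2 and 24.2-fold in the pre-B line. A predicted gene, Gm37419, overlaps Bcl6 and shares its promoter peaks.

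RefSeq gives Bcl6 a second start inside the gene, and it was covered by the pre-B block but not by that of Scid.adh.2C2. Its 250 upstream bases, chr16:23981284-23981533 on the minus strand of GRCm38, hold no exon of the gene. They are shown because they contain TTCCNNGAA, the core of sites bound by Stat factors, 2 times, marked in capitals. This motif was found in 4.06% of RefSeq promoters at the same length and in 1 of the 8 RefSeq windows of the 7 regulators.
Bcl6 internal start: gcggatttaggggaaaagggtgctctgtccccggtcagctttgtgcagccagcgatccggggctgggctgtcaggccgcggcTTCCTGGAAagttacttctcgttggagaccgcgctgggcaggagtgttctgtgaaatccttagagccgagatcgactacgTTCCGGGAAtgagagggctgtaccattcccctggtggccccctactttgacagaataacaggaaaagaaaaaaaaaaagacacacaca
All 250 bases lay within the pre-B peak and 0 within a peak of Scid.adh.2C2, whose block ended short of this start.

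Prdm1 encodes Blimp-1, the repressor that ends the B cell program in plasma cells and also acts in effector T cells. Its start sites were marked in both lines, and the stronger start was not the same one. The gene lies on the minus strand of chromosome 10 from 44437177 to 44528501. At the main promoter, where 3 TSSs lie, Scid.adh.2C2 had a peak of 2404 bp from 44457132 to 44459535 at 11.4-fold. The pre-B peak there measured 3157 bp, from 44457101 to 44460257, at 24.1-fold. At the distal TSS, 69753 bp upstream and annotated for a transcript with a retained intron, the order was the other way round. The peak beside it reached 31.8-fold over 1531 bp in Scid.adh.2C2 (percentile 73.8) and 17.5-fold over 1782 bp in the pre-B line. This distal peak did not contain the TSS and began 431 bp and 430 bp upstream of it. Taking all windows together, the highest fold of Prdm1 was thus higher in the pro-T line, whereas with TSSs of protein-coding transcripts alone it was 11.4 against 24.1.

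Between both starts of Prdm1 the lines shared an intronic site. It was marked at 7.25-fold over 439 bp in Scid.adh.2C2 and at 16.0-fold over 1102 bp in the pre-B line, with summits 24.7 kb and 24.2 kb upstream of the main TSS. A peak of 899 bp at 10.0-fold, 10.2 kb downstream, was found in Scid.adh.2C2 only. Beyond the end of the gene, the pre-B line alone had peaks 23.9 kb and 77.8 kb downstream of the main TSS, at 9.51-fold and 21.8-fold, neither of them at an annotated start site. Covered promoter length was 3935 bp in Scid.adh.2C2 and 4939 bp in the pre-B line, a log2 ratio of 0.33 that stood at percentile 69.2. The neighbours Atg5 and Prep were marked in both lines, at 17.1-fold and 19.1-fold in Scid.adh.2C2 and at 26.4-fold and 27.1-fold in the pre-B line.

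Xbp1, the transcription factor of the unfolded protein response that expands the secretory pathway of plasma cells, showed the sharpest contrast between height and width. It is 5235 bp long and lies on the plus strand of chromosome 11 from 5520659 to 5525893. In Scid.adh.2C2 a single peak of 2698 bp, from 5519866 to 5522563, contained all 4 TSSs at 38.6-fold (percentile 94.4), with a −log10 q of 178. In the pre-B line a single peak of 7194 bp, from 5519313 to 5526506, covered 100% of the gene at 15.7-fold (percentile 17.3), with a −log10 q of 127. Its width was at percentile 99.2 of the widest promoter peaks in that list. The summit moved from an intron 0.919 kb downstream of the main TSS in the pro-T line to a coding exon 3.69 kb downstream in the pre-B line. The log2 ratio of the fold was -1.30, at percentile 2.15 of the genes marked in both lines, while that of the covered length was 0.92, at percentile 93.0. By −log10 q in place of the fold, the percentile in the pre-B line was 51.4.

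Within 60 kb on either side of Xbp1, 6 peaks of the pre-B line and 1 of Scid.adh.2C2 lay outside the promoter windows of all protein-coding genes, and 5 of the 6 had no partner. Among all peaks outside these windows, 73.8% in the pre-B list and 58.8% in that of Scid.adh.2C2 had no partner, and among all peaks of the lists, promoter peaks included, 39.3% and 25.6% had none. All 5 lay upstream, between 8.83 kb and 19.8 kb from the main TSS, with folds from 5.08 to 13.0. In the same range around the other regulators, the pre-B line had 2 such peaks by Prdm1, 1 by Bach2 and 0 by the other 4, all without a partner, and Scid.adh.2C2 had 1 each by Pou2af1, Pou2f2 and Bcl6. The peak that the lines shared lay 34.9 kb and 34.1 kb upstream, at 29.3-fold in Scid.adh.2C2 and 22.9-fold in the pre-B line. The flanking promoters of Znrf3 and Ccdc117 were marked in both lines. They reached 30.3-fold and 32.6-fold in Scid.adh.2C2, and 15.9-fold and 24.2-fold in the pre-B line. A lower fold in the pre-B line was thus also seen on either side of Xbp1, as it was for 76.1% of the genes marked in both lines.

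**Figure D3:**
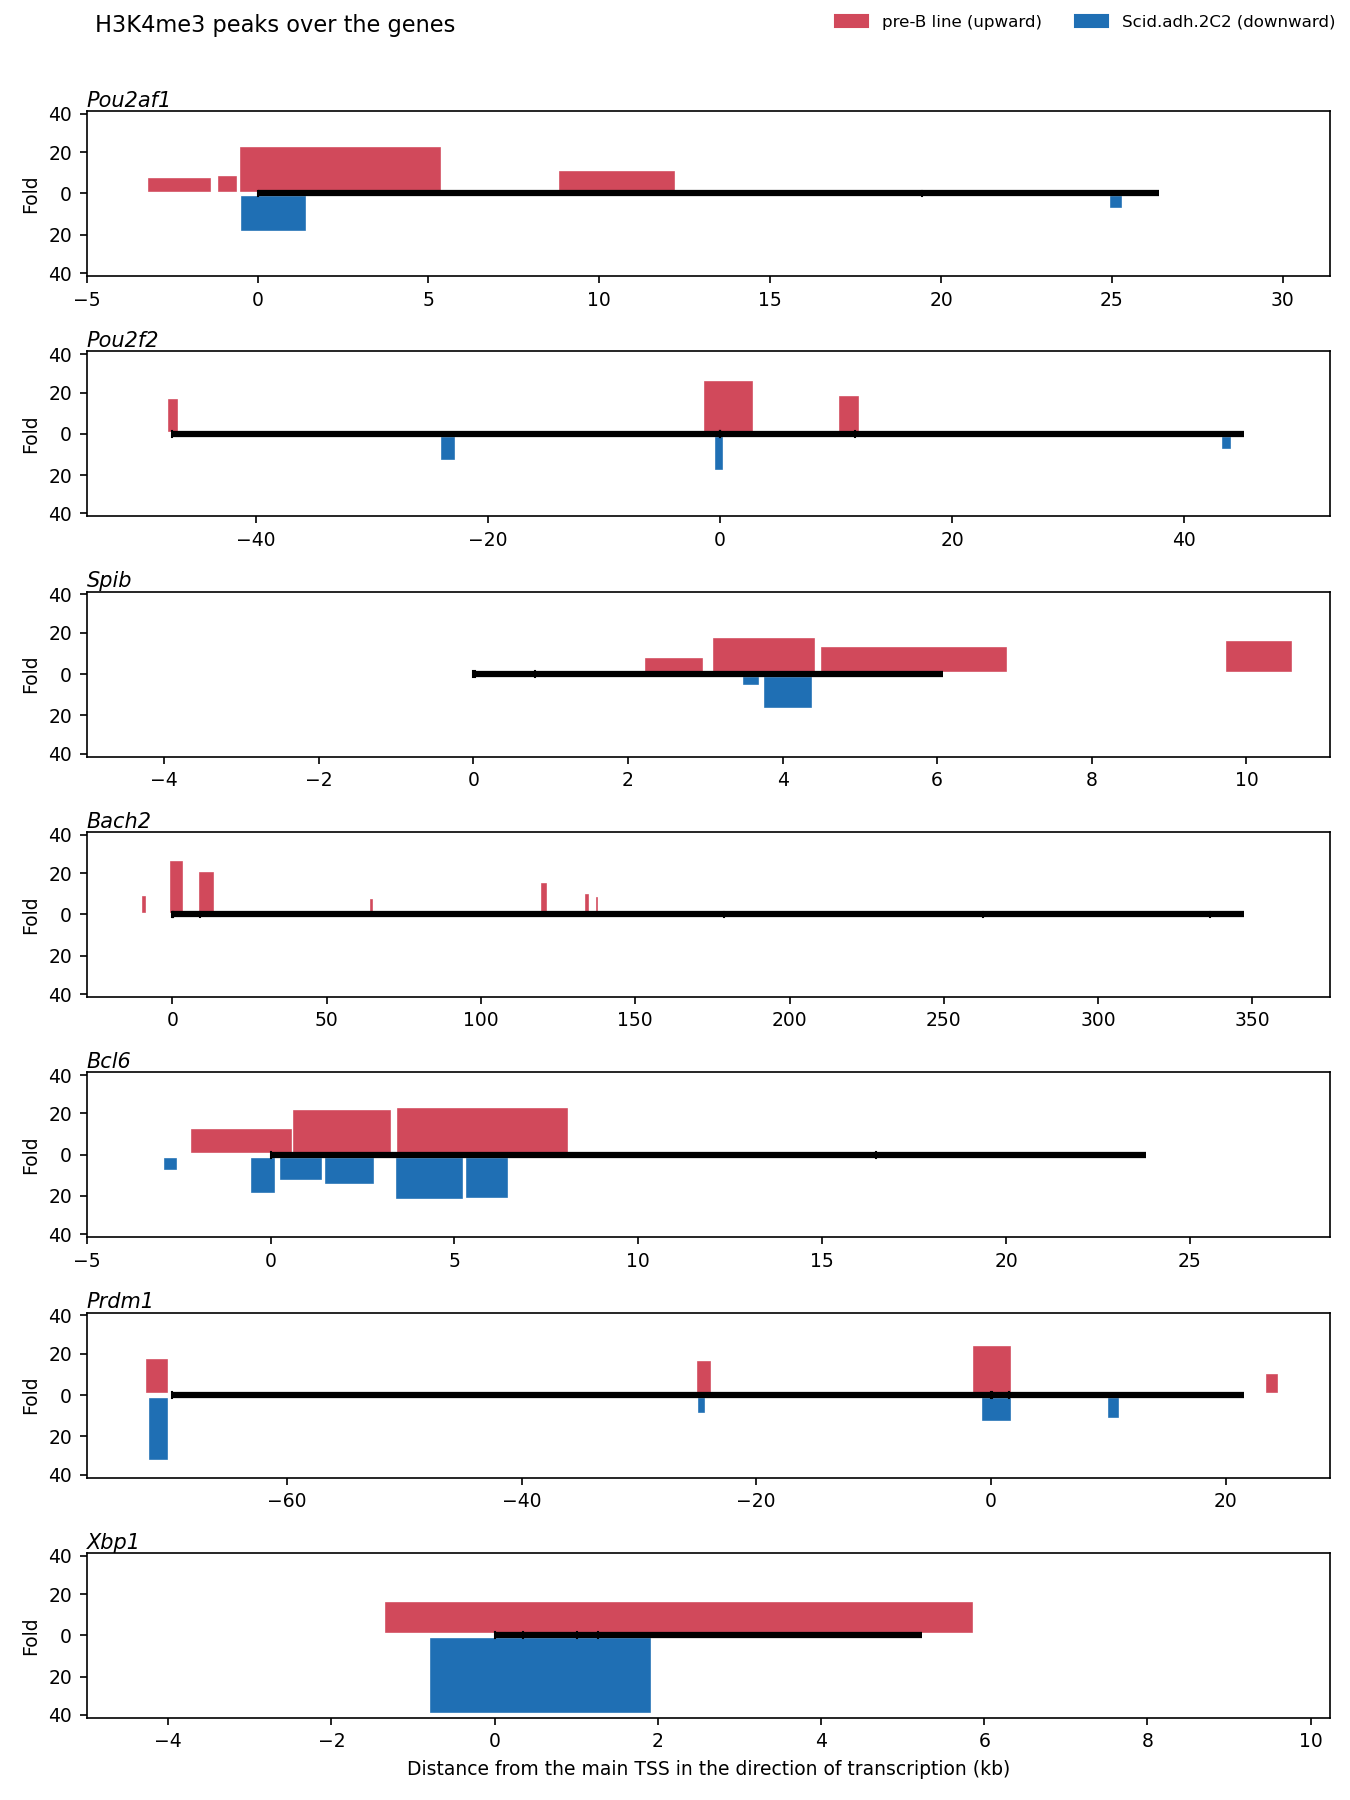
H3K4me3 peaks over each regulator, drawn to scale along the distance from the main TSS in kb, in the direction of transcription. Bar width is peak width and bar height is fold enrichment, upward for the pre-B line and downward for Scid.adh.2C2, and the black line is the gene with its annotated TSSs as ticks. Bach2 has no bar for Scid.adh.2C2, the bars of Spib over the gene lie downstream of its TSSs, and the pre-B peak of Xbp1 covers the whole gene.

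Peaks over the gene but outside the promoter windows were found for 5 of the 7 regulators in each line. This was the case for 6.69% of all protein-coding genes in Scid.adh.2C2 and for 10.0% in the pre-B line. There were 9 such peaks in Scid.adh.2C2, in Pou2af1, Pou2f2, Spib, Bcl6 and Prdm1, and 8 in the pre-B line, in Pou2af1, Spib, Bach2, Bcl6 and Prdm1. Several of these genes are long, and gene length was not accounted for.

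The upstream sequences of the regulators were searched on both strands for short motifs. RefSeq promoters of GRCm38 gave 8 windows of 250 bases before a start for the 7 genes, with 2 for Bcl6. The octamer ATGCAAAT was in 0 of the 8 windows and in 1.60% of all 32841 promoters at this length. TGCAAAT, the octamer without its first base and hence part of it, was in 3 of the 8, upstream of Pou2af1, Spib and Prdm1, and in 3.57% of all promoters. ATGCAAA, the octamer without its last base, was in 0 of the 8 and in 4.13% of all promoters. The 3 TGCAAAT windows are shown because octamer sites are the ones that the products of Pou2f2 and Pou2af1 act through, with TGCAAAT or its reverse complement in capitals. They are chr9:51213440-51213689 on the plus strand, chr7:44532072-44532321 on the minus strand and chr10:44458749-44458998 on the minus strand, and none overlaps an annotated exon of its gene.
Pou2af1: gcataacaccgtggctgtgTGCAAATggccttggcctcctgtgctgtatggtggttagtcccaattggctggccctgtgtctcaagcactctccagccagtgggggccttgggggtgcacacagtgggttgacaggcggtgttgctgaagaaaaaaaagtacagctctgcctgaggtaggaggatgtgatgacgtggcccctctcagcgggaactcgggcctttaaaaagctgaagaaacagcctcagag
Spib: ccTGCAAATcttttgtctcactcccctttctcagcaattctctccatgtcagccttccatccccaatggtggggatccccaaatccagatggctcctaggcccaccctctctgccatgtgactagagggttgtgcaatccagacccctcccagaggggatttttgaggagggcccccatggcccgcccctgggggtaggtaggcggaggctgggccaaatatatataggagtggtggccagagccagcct
Prdm1: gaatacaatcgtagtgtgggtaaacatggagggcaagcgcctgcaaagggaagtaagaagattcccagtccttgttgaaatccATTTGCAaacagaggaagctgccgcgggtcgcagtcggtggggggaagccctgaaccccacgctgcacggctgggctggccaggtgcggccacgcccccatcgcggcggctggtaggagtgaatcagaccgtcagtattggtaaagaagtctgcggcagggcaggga
The Pou2af1 and Prdm1 windows lay fully within peaks of both lines, and the Spib window lay in none. Spib has 2 CpG in this window, Pou2af1 has 5 and Prdm1 has 15.

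Other motifs were also counted in the 8 windows. CCACG, the core of sites bound by Xbp1 and other unfolded protein response factors, was in 3 windows, of Pou2af1, Prdm1 and Bcl6, and in 28.4% of all promoters. It was in 0 windows of Xbp1 itself. CCAAT was in 4 windows and in 33.9% of all promoters, and GAGGAA, part of many Ets sites, was in 3 windows and in 23.3%. GAAAGT was in 1 window and in 12.3%, and TATAAA and TGAGTCA were in 0 windows and in 12.4% and 4.46%. A match is a stretch of letters and not a measured binding site.

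Genes with the most similar pattern to the regulators marked in both lines were sought over 4 values, the percentile of the fold and of the widest promoter peak in each list. Ywhaq and Zbtb38 were nearest to Pou2af1, at 11.7 and 13.2 percentile points, and Bcl2l1 and Nfix to Pou2f2, at 11.3 and 11.4. For Bcl6 the nearest was the overlapping Gm37419, with the same peaks, followed by N4bp2l2 at 7.72. Dpm1 and Gm20716, both at 6.17, were nearest to Prdm1. For Xbp1 they were Nop58 and Sypl, at 9.87 and 12.7 percentile points.

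The lists of genes around the regulators, some of which share genes, differed in how they were marked. Of 23 relatives of the same families, 11 (47.8%) were marked in both lines and 10 (43.5%) in neither, beside 42.2% and 48.5% of all protein-coding genes. Pou2f1, the ubiquitous relative of Pou2f2, was marked at 27.5-fold in Scid.adh.2C2 and at 24.6-fold in the pre-B line, whereas the tissue-restricted Pou2f3 was unmarked. Spi1, a close relative of Spib, reached 7.09-fold over 836 bp in Scid.adh.2C2 and 21.9-fold over 3653 bp in the pre-B line. Bach1 was marked in both lines, at 24.6-fold in Scid.adh.2C2, where Bach2 had no peak. Of 20 binding partners and cofactors, 18 were marked in both lines, among them the corepressor subunits Kdm1a, Ctbp1, Hdac3 and Hdac1, and 2 in the pre-B line only, Tle3 at 29.0-fold and Irf8 at 28.9-fold.

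Of 26 B cell transcription factors around the 7 regulators, 18 were marked in both lines and 7 in the pre-B line only, led by Irf8, Zbtb32, Ebf1 and Tcf4 at 28.9-fold, 28.0-fold, 26.1-fold and 21.9-fold. Those marked in both lines were led by Nfkb2, Ikzf1, Foxo1 and Stat5a, and Ets1 was marked in Scid.adh.2C2 only. Irf4, which acts with Prdm1 in plasma cells, was marked at 8.32-fold over 585 bp in Scid.adh.2C2 and at 25.2-fold over 4850 bp in the pre-B line, a narrow mark in the pro-T line like that of Pou2f2. Genes of mature B cells and plasma cells, stages for which these regulators were chosen, were more often marked in the pre-B line alone than in both lines. Among all protein-coding genes, 5.97% were marked in the pre-B line only and 42.2% in both lines. Of 20 mature B cell genes, 12 were marked in the pre-B line only, among them Cd79b, Tnfrsf13c and Cd79a at 29.0-fold, 28.3-fold and 27.9-fold. A further 3, Btk, Cd24a and Cd72, were marked in both lines, and Ms4a1, Cr2, Fcer2a, Cxcr5 and Fcmr were unmarked. Of 18 plasma cell genes, 9 were marked in the pre-B line only, led by Slamf7, Ell2, Fkbp11 and Mzb1 at 25.5-fold, 24.6-fold, 21.0-fold and 21.0-fold, and 6 in both lines, among them Creld2, Glcci1, Edem1 and Irf4. Tnfrsf17, Ly6c2 and Prg2 were unmarked.

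Of 18 germinal center genes, a list that includes Bach2, 9 were marked in both lines, 3 in the pre-B line only and 6 in neither. These shares, 50.0%, 16.7% and 33.3%, stood beside 42.2%, 5.97% and 48.5% of all protein-coding genes. Ccnd3, Ung, Foxo1 and S1pr2 led the germinal center genes marked in both. Bach2 and Cxcr4, the latter at 16.5-fold, were among the 3 marked in the pre-B line only. Genes of the unfolded protein response, through which Xbp1 acts, were marked in both lines for 26 of 30, with Pdia3, Ddit3, Sel1l and Ern1 highest by mean percentile. Atf4, Dnajb9 and Derl3 were marked in the pre-B line only and Herpud1 in Scid.adh.2C2 only. Ern1, the kinase and nuclease that splices the Xbp1 transcript, reached 34.6-fold in Scid.adh.2C2 and 24.8-fold in the pre-B line. The median log2 ratio of covered length for the 26 genes was 0.13, beside 0.92 for Xbp1.

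**Figure D4:**
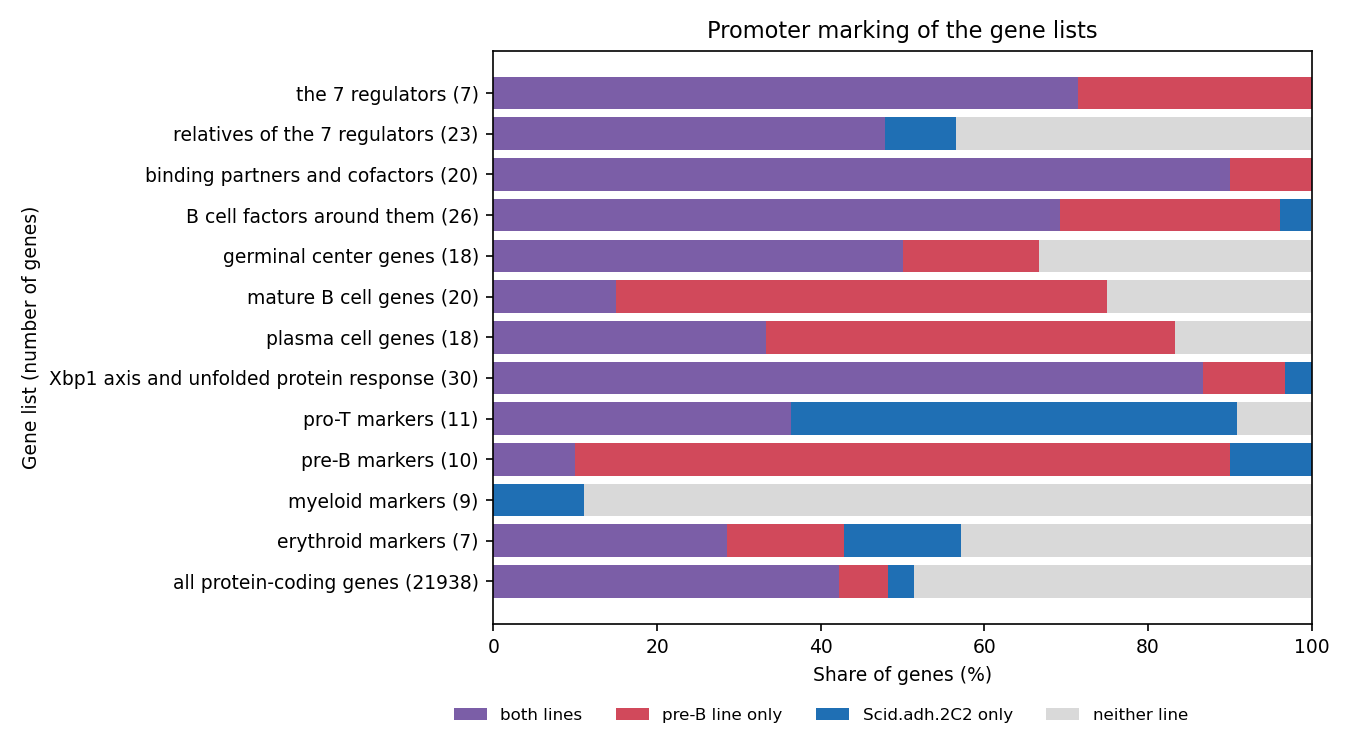
Share of the genes of each list that were marked in both lines, in the pre-B line only, in Scid.adh.2C2 only or in neither, with the number of genes in parentheses and all protein-coding genes in the last bar. Of the mature B cell genes 60.0% and of the plasma cell genes 50.0% were marked in the pre-B line only, against 28.6% of the 7 regulators.

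A promoter is unmarked here where the deposited list of a line holds no peak, which does not show that the histone mark is missing. Herpud1, an unfolded protein response gene used in most cells, had a 50.6-fold peak in Scid.adh.2C2 and none in the pre-B line, and Atf4 had a 32.3-fold peak in the pre-B line and none in Scid.adh.2C2. Ets1 was marked in Scid.adh.2C2 only, at 23.4-fold. No reads or coverage were at hand for these promoters, so a promoter without the mark and a peak missing from a list cannot be told apart, at Bach2 as well. At Bach2 the whole gene was without peaks in Scid.adh.2C2, where the pre-B line had 6.

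The labels of the lines were compared with marker genes. Of 11 pro-T markers, 10 carried a promoter peak in Scid.adh.2C2, compared with 4 in the pre-B line, with Cd3e, Gata3, Thy1 and Cd3g highest among those in Scid.adh.2C2 only, and Cd8a was unmarked. Of 10 pre-B markers, 9 were marked in the pre-B line and 2 in Scid.adh.2C2, namely Vpreb1 in both lines and Rag1 in Scid.adh.2C2 only. Of 9 myeloid markers 0 were marked in the pre-B line and 1, Fcgr3, in Scid.adh.2C2 at 6.51-fold. Of 7 erythroid markers 3 were marked in each line, among them Tfrc and Klf1 in both.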

How the data were processed

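Per the paper's methods and the submitters' processing notes, the authors trimmed reads with Trim Galore 0.6.7, mapped them to mm10 (GRCm38) with Bowtie2 2.4.4, called narrow peaks with MACS2 2.2.7.1 at a q-value of 0.05 against input and kept the peaks reproducible between replicates at an irreproducible discovery rate (IDR) of 0.05. The deposited values of each peak are an IDR score, a fold enrichment ratio over background, −log10 p and −log10 q, and a summit offset, and they were used unchanged. The 2 replicates of a line are combined in these lists, so no test between the lines was made. Peak starts were counted from 1. TSSs and genes came from GENCODE M21 on the same build, and peak ends were checked against the chromosome lengths for the chromosomes of the 7 genes. Overlaps of at least 1 bp counted, and the overlap functions were tested on simulated peaks. Covered length was summed over the windows of a gene, merged where they overlap. Percentiles are the share of marked protein-coding genes at or below a value. Motifs were searched in the 250 bases before each RefSeq start, and before a GENCODE start of Bach2, Pou2f2 and Prdm1.

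The members and lists were chosen with earlier results of these data known. Named from each list were up to 4 genes per class with the highest fold (for both lines, the mean percentile), apart from a few names left out, the unmarked genes where 5 or fewer, the nearest protein-coding genes on either side of each regulator, and the 2 genes nearest in pattern. Casp8ap2, Pou2f1, Pou2f3, Spi1, Bach1 and the peaks within 60 kb were chosen after their values were seen, as were the named relatives of wide use. Alternatives were other windows, stricter peaks, equal list lengths, summits, other TSS sets, −log10 q for the fold, and joined peaks. Python 3.11.15, numpy 2.4.6 and matplotlib 3.10.9 were used. Other assays of the study were not analysed here.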

Additional observations from a re-analysis of the deposited data

How the results depend on the processing

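The number of regulators marked in each line, in both lines and in Scid.adh.2C2 only stayed within 1.5 times its value under the 9 alternatives run. The number marked in the pre-B line only, 2 in the main setting, was 1 with windows of 1000 bp and 1 with windows of 5000 bp, since Spib was then marked in neither line or in both. With the most upstream TSS, or the TSS of the RefSeq gene table, Pou2f2 was unmarked in Scid.adh.2C2, and 3 regulators were marked in the pre-B line only. The median log2 ratio of the fold over the 5 regulators, 0.28, was 0.38 with the peak over the main TSS, an alternative added after seeing the data, and the 2 that were lower in the pre-B line were then Bcl6 and Xbp1. The number of regulators with more promoter covered in the pre-B line was 5 in the main setting and 5 with the main TSS alone. A wider domain at the main TSS in the pre-B line, with peaks joined over gaps of 1000 bp, was found for 5, which measures the domain and not the promoter covered. Both alternatives were added after seeing the data. With the main TSS alone the covered length in the pre-B line fell to 3862 bp for Pou2f2, 3259 bp for Bach2, 3157 bp for Prdm1, 3847 bp for Xbp1 and 286 bp for Spib, and in Scid.adh.2C2 to 2404 bp for Prdm1. With the most upstream TSS it was 811 bp in the pre-B line against 0 in Scid.adh.2C2 for Pou2f2, likewise 1782 bp against 1531 bp for Prdm1, and as with the main TSS for the others. Of 105 values of the highest fold under the alternatives, 95 were equal to the main one, and of 12 percentiles 7 moved by about 5 points or more when −log10 q replaced the fold. In the pre-B line Pou2af1 went from 55.5 to 79.8, Pou2f2 from 78.0 to 84.3, Bach2 from 79.9 to 74.1, Prdm1 from 66.1 to 36.8 and Xbp1 from 17.3 to 51.4, and in Scid.adh.2C2 Pou2f2 went from 11.9 to 6.90 and Prdm1 from 73.8 to 53.1. No paired analysis was possible because each line has 1 combined list and no result comes from a test. The lists hold no read counts, so what depth limits could not be measured.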
